A study of Sorghum bicolor with 24 samples.

Results

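The C4 photosynthesis enzyme genes of sorghum were examined as a set of 9 gene models, out of 34145 in the tables, chosen by identity: the enzymes of C4 carbon fixation and their close copies. They are phosphoenolpyruvate carboxylase (PEPC, Sb10g021330), pyruvate phosphate dikinase (PPDK, Sb09g019930), NADP-malic enzyme (NADP-ME, Sb03g003230 and Sb03g003220), NADP-malate dehydrogenase (NADP-MDH, Sb07g023920 and Sb07g023910), carbonic anhydrase (Sb03g029170 and Sb03g029180) and the Rubisco small subunit (Sb05g003480). All 9 passed the low-count filter that left 22667 genes for testing, and each was present in all 24 libraries. The members of each pair of copies are neighbours on their chromosome of the sbi1 genome: the NADP-ME models lie on chromosome 3 at 3357017 to 3362737 (Sb03g003220) and 3374323 to 3379566 (Sb03g003230), the NADP-MDH models on chromosome 7 at 58933607 to 58936928 (Sb07g023910) and 58938544 to 58942137 (Sb07g023920), and the carbonic anhydrase models on chromosome 3 at 57310079 to 57320518 (Sb03g029170) and 57324572 to 57329061 (Sb03g029180). PEPC lies on chromosome 10 at 47131018 to 47137553, PPDK on chromosome 9 at 48939510 to 48952130 and the Rubisco small subunit on chromosome 5 at 3939686 to 3941007.

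In a C4 leaf, carbonic anhydrase turns CO2 into bicarbonate in mesophyll cells, PEPC fixes the bicarbonate onto phosphoenolpyruvate, and NADP-MDH reduces the resulting oxaloacetate to malate. The malate moves to the bundle sheath, where NADP-ME releases the CO2 again beside Rubisco, and PPDK rebuilds phosphoenolpyruvate in the mesophyll. Roots carry out no C4 photosynthesis, but they use other members of the same enzyme families in organic acid metabolism and pH balance.

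RNA-Seq was carried out on roots and shoots of seedlings of the line BTx623, in 8 groups of 3 libraries. At 8 days the plants received 20 μM ABA or its NaOH control, or 20% PEG, a polymer that holds back water from roots, or H2O as its control, for 27 hours, and they were harvested at 9 days. Each library was made from pooled RNA of 3 buckets of 10 plants, the replicate number stands for a separate hydroponic experiment, and roots and shoots with equal treatment and number were taken from the same plants. The labels give 0.2 M for the NaOH control, far above the micromolar concentration described in the methods of the study. Whole shoots and whole roots were sequenced, so mesophyll and bundle sheath are not told apart, and fewer cells of a type cannot be told apart from less RNA per cell.

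The libraries held 12891739 to 22840516 reads on gene models in roots and 13753904 to 22568484 in shoots. Of these reads, the 9 genes received 0.0235% to 0.0288% in root libraries and 3.70% to 6.25% in shoot libraries. Replicate 2 of the NaOH shoots had a header date shared with no other library, and whether it marks a separate sequencing run was not checked. By the labels its base-calling software (RTA) was version 1.6, as in all of replicate 3. The other libraries of replicate 2 and those of replicate 1 had version 1.5. The paper describes this upgrade as raising the number of reads. The values that NaOH shoots replicate 2 moved most are also given without it. Only reads with a unique match were kept and strand was not regarded, so reads that 2 near-identical copies share are missing from both, and values of single copies are uncertain to an extent that was not measured. As a check of the tissue labels, the summed level of 9 light-harvesting chlorophyll-binding protein genes was 13812 to 41009 RPKM (reads scaled for exon length and library size) in the 12 shoot libraries and 4.94 to 32.3 RPKM in the 12 root libraries, with none of the 9 genes at 0 in any root library.

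In shoots, PEPC was among the most abundant transcripts of all, ranking between 1st and 9th by RPKM among the gene models of every shoot library. It was the most abundant transcript in each of the PEG shoots. Its level was 4505, 6873 and 6418 RPKM in the H2O shoots, 4271, 7975 and 6214 in the NaOH shoots, 4920, 6498 and 6260 in the PEG shoots and 5511, 7967 and 7246 in the ABA shoots. The groups overlapped throughout, and replicate 1 was the lowest library of every group. PPDK ranked between 3rd and 15th. It reached 4317, 5739 and 5086 RPKM in the H2O shoots, 4003, 5787 and 5113 in the NaOH shoots, 3257, 3924 and 3893 in the PEG shoots and 3528, 4211 and 4334 in the ABA shoots. All 3 PEG libraries lay below all 3 H2O libraries, while the ABA libraries overlapped the NaOH libraries.

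The order of the members in shoots, by the median RPKM of the 12 libraries, was PEPC (6339), PPDK (4264), the Rubisco small subunit (2318), NADP-ME Sb03g003230 (577), NADP-MDH Sb07g023920 (397), carbonic anhydrase Sb03g029170 (379), carbonic anhydrase Sb03g029180 (190.4), NADP-MDH Sb07g023910 (41.2) and NADP-ME Sb03g003220 (25.4). RPKM is per length of exon, so these levels can be set side by side between genes. The ranges over the 12 libraries overlapped between neighbours in this order, with 2 exceptions. The Rubisco small subunit, at 1022 RPKM or more, lay above the 797 RPKM that Sb03g003230 reached at most, and carbonic anhydrase Sb03g029180, at 142 RPKM or more, lay above the 56.7 RPKM that NADP-MDH Sb07g023910 reached at most. Within a library the order at the top was fixed: PEPC exceeded PPDK in all 12 shoot libraries, by a ratio of 1.04 to 1.89, and PPDK exceeded the Rubisco small subunit in all 12, by 1.28 to 3.45. The plot of RPKM by library shows all members.

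**Figure D1:**
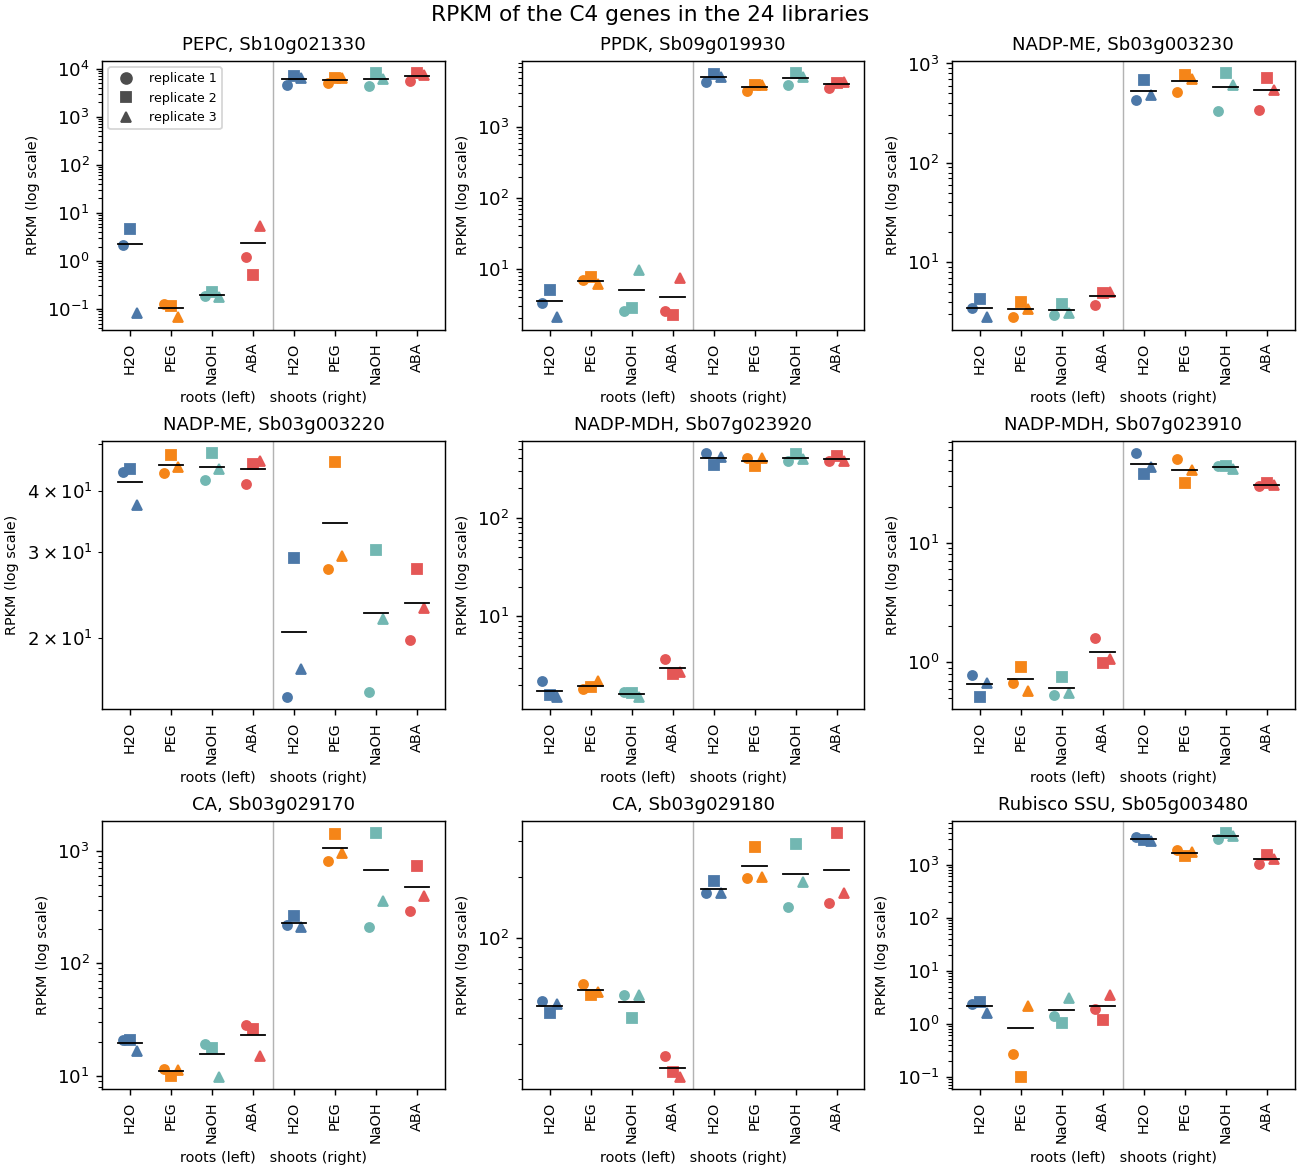
RPKM (log axis) of each of the 9 genes in the 12 root and the 12 shoot libraries, by treatment. Each point is a library, its shape the replicate number, and the bar is the mean of the 3 libraries of a group. All genes but NADP-ME Sb03g003220 lie higher in shoots, and PEPC in roots spreads from 0.0674 to 5.44 RPKM.

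In control plants, 8 of the 9 genes were called higher in shoots than in roots by edgeR's quasi-likelihood test, and 18.5% of all genes tested were called in this direction. A gene was called when its p, adjusted over all genes by Benjamini and Hochberg, was under 0.05, its log2 fold change was 1 or more in size and the median coverage of its exons reached 2X in either group. The exception was NADP-ME Sb03g003220. The test estimated a single spread per gene over all 24 libraries. An SE or p for shoots thus also carries the variation between root libraries, and the reverse. The log2 fold changes (shoots over roots, mean of the H2O and NaOH groups, ± SE) were 13.74 ± 0.83 for PEPC, 11.25 ± 0.50 for the Rubisco small subunit and 10.83 ± 0.48 for PPDK. Those of NADP-MDH Sb07g023920 and NADP-ME Sb03g003230 were 8.52 ± 0.17 and 7.97 ± 0.27, and that of NADP-MDH Sb07g023910 was 6.76 ± 0.19. Of these 8, the carbonic anhydrase genes differed least, with 5.13 ± 0.41 for Sb03g029170 and 2.62 ± 0.20 for Sb03g029180. Without NaOH shoots replicate 2, which held 1449 RPKM of Sb03g029170 beside 210 and 359 in the other NaOH shoots, their values were 4.51 and 2.46, both still called. The largest adjusted p of these 8 in edgeR's quasi-likelihood test was 3.81e-10. The folds are on reads scaled by TMM factors, under which the median gene lay 0.11 lower in shoots on the log2 scale. With scaling by library size alone that median was −0.76, and all 8 calls were the same in number and direction.

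The shoot share of a gene was taken as the shoot RPKM divided by the sum of the shoot and root RPKM of the same plants, over 12 pairs of libraries. It was 99.98% ± 0.028 (SD, n = 12) for PEPC, 99.91% ± 0.076 for the Rubisco small subunit and 99.89% ± 0.065 for PPDK. It was 99.5% ± 0.17 for NADP-MDH Sb07g023920, 99.3% ± 0.20 for NADP-ME Sb03g003230 and 97.9% ± 1.19 for NADP-MDH Sb07g023910. The carbonic anhydrases had shares of 95.5% ± 3.29 (Sb03g029170) and 82.0% ± 6.06 (Sb03g029180), and NADP-ME Sb03g003220 had 35.5% ± 6.46. From the mean levels of the control groups, the median gene tested had a share of 37.8%. NADP-ME Sb03g003220 had 33.1% on that measure, above 37.2% of the genes tested, and each of the other 8 members was above at least 87.8% of them.

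The NADP-ME copies, which share the reaction that sets CO2 free from malate, were opposite in their tissue levels. Sb03g003230 had 331 to 797 RPKM in the 12 shoot libraries and 2.79 to 4.98 in the 12 root libraries. Sb03g003220 had 37.4 to 48.0 RPKM in the root libraries, with a highest-to-lowest ratio of 1.28 that was the smallest of the 9 genes in roots, and 15.1 to 46.0 in the shoot libraries. Its shoot and root ranges overlapped only through the PEG shoots, where replicate 2 reached 46.0 RPKM. By edgeR's quasi-likelihood test, Sb03g003220 was lower in control shoots by a log2 fold change of −0.41 ± 0.15 (adjusted p = 0.0214), under the fold cutoff. With scaling by library size alone the value was −1.05 (adjusted p = 5.51e-06 by the same test), past the cutoff. The median of all genes tested was −0.11 with TMM scaling and −0.76 with library size alone, so part of either value is shared by the median gene.

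The ratio of the copies within a library does not depend on scaling, and it separated the tissues for all 3 enzymes. The ratio of Sb03g003230 to Sb03g003220 was 16.7 to 28.8 in shoots and 0.0642 to 0.108 in roots. The ratio of NADP-MDH Sb07g023920 to Sb07g023910 was 7.97 to 13.2 in shoots and 2.11 to 3.82 in roots, so the same copy led in both tissues. The ratio of carbonic anhydrase Sb03g029170 to Sb03g029180 was 1.28 to 5.00 in shoots and 0.188 to 1.19 in roots, where Sb03g029180 led in every library but 2 of the ABA roots. Over the 6 pairs of control libraries from the same plants, the log2 ratio was higher in shoots by 8.38 ± 0.26 (SD) for NADP-ME, 1.74 ± 0.32 for NADP-MDH and 2.31 ± 0.89 for carbonic anhydrase, in 6 of 6 pairs each. The two-sided exact sign-flip permutation test gave p = 0.03125 for each, the smallest value it can give, and 0.03125 after Benjamini-Hochberg adjustment over the 3. The 6 pairs come from 3 experiments, so pairs of the same experiment are not fully independent. The ratios were added after seeing the data, so their p-values in this test are a description and no independent evidence. Without the pair of NaOH shoots replicate 2, left out after seeing the data, the differences were 8.38, 1.66 and 2.07, each with p = 0.0625 in the exact sign-flip permutation test, the smallest value that 5 pairs allow.

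**Figure D2:**
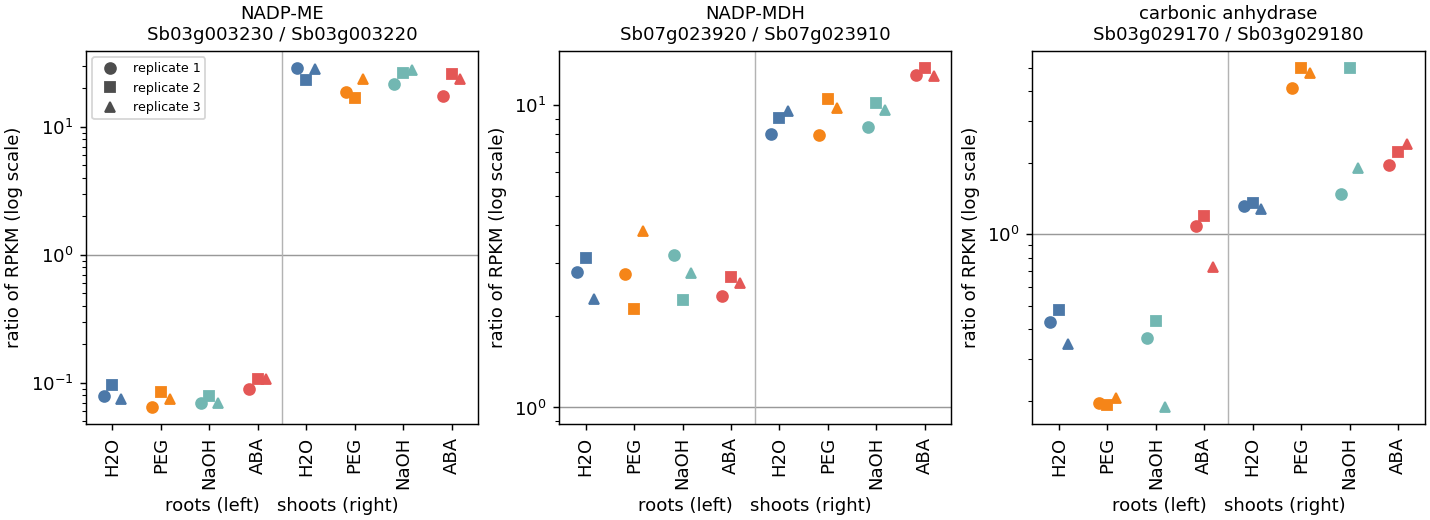
Ratio of RPKM (log axis) of the 2 copies of NADP-ME, NADP-MDH and carbonic anhydrase in each of the 24 libraries, by treatment in roots and shoots; a shape stands for a replicate number. The shoot libraries lie above the root libraries in each panel, by the widest gap for NADP-ME, and the ratio of carbonic anhydrase also differs between treatments.

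In roots, PEPC was at trace level and varied more between libraries than any other member, by a highest-to-lowest ratio of 80.7. It had 2.13, 4.73 and 0.0832 RPKM in the H2O roots, 0.126, 0.118 and 0.0674 in the PEG roots, 0.192, 0.231 and 0.180 in the NaOH roots and 1.21, 0.506 and 5.44 in the ABA roots. All 3 ABA libraries lay above all 3 NaOH libraries, but H2O roots replicate 3 lay among the PEG libraries. The smallest of these values rest on 6 or 7 reads and the highest on 451. The Rubisco small subunit was also at trace level, with 2.34, 2.62 and 1.57 RPKM in the H2O roots, 0.265, 0.0992 and 2.15 in the PEG roots, 1.39, 1.05 and 3.08 in the NaOH roots and 1.91, 1.18 and 3.47 in the ABA roots. Its groups overlapped in both comparisons, and PEG roots replicate 3 lay far above the other PEG roots. Its log2 fold change with PEG was −1.21 ± 0.60 (adjusted p = 0.282 in edgeR's quasi-likelihood test), and for Sb05g003480 without PEG roots replicate 3 it was −3.56 (adjusted p = 0.00308), at a coverage too low for a call. PPDK had 2.05 to 9.64 RPKM in roots, with all 3 PEG libraries (5.995 to 7.64) above the 3 H2O libraries (2.05 to 5.07).

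**Figure D3:**
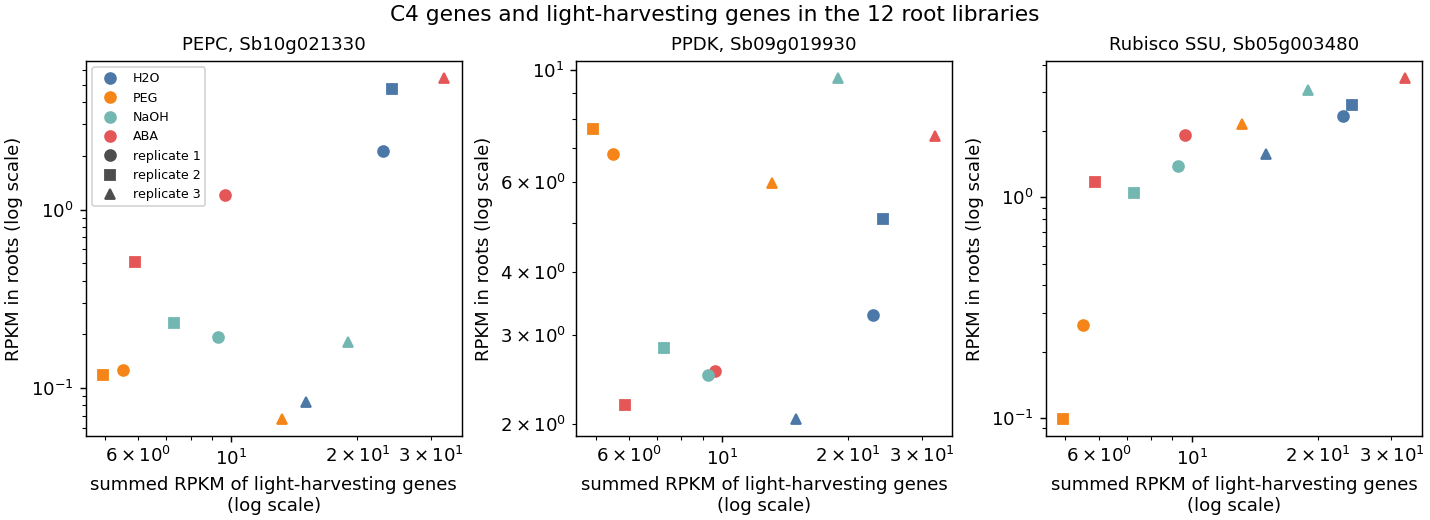
RPKM of PEPC, PPDK and the Rubisco small subunit (log axes) against the summed RPKM of the 9 light-harvesting genes in the 12 root libraries. Colour stands for the treatment and shape for the replicate number. ABA roots replicate 3 and H2O roots replicate 2, with the highest light-harvesting sums of 32.3 and 24.2 RPKM, have the highest levels of PEPC, 5.44 and 4.73 RPKM, while NaOH roots replicate 3 and H2O roots replicate 3, with sums of 18.9 and 15.1 RPKM, have 0.180 and 0.0832 RPKM of PEPC.

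The summed level of the light-harvesting genes was set beside these root traces. It was 15.1 to 24.2 RPKM in the H2O roots, 4.94 to 13.2 in the PEG roots, 7.30 to 18.9 in the NaOH roots and 5.89 to 32.3 in the ABA roots. The PEG roots lay below the H2O roots in this sum without overlap, and the ABA and NaOH roots overlapped. The 9 genes were named in gene lists that the study chose on these same libraries, and 1 of them was called lower in PEG roots. The separation of this sum by treatment is therefore tied to that choice and is not independent evidence. As a description over the 12 root libraries, which share experiments and treatments, Pearson's r with this sum on the log2 scale was 0.64 for PEPC, 0.84 for the Rubisco small subunit and 0.20 for PPDK, and −0.18 to 0.13 for the other 6 genes. PEPC averaged 6222 RPKM over the 12 shoot libraries and 1.25 over the 12 root libraries. The part of light-harvesting transcripts or shoot RNA in the root values of PEPC and the Rubisco small subunit was not tested.

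With ABA, the question was which genes changed against the NaOH control. In shoots 1 of the 9 genes was called, against 7.17% of all genes tested in either direction, and 2 of the 9 had RPKM ranges that did not overlap between the groups, against 36.7% of all genes. The gene called was the Rubisco small subunit, the nuclear-encoded subunit of the enzyme that fixes CO2 in the Calvin cycle. It had 2989, 3992 and 3471 RPKM in the NaOH shoots and 1022, 1534 and 1291 in the ABA shoots. Every ABA library was below every NaOH library, and the gene fell by 1.56 ± 0.46 (SE) on the log2 scale, with an adjusted p of 0.0200 in edgeR's quasi-likelihood test. When ABA shoots replicate 1 was left out the adjusted p was 0.0838, when ABA shoots replicate 3 was left out it was 0.0666, and when replicate 1 of all groups was left out it was 0.176. The log2 fold change of Sb05g003480 was −1.54 in the second case and −1.50 in the last, and −1.45 (adjusted p = 0.0458) without NaOH shoots replicate 2.

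The other gene without overlap was NADP-MDH Sb07g023910, with 44.3, 44.0 and 41.3 RPKM in the NaOH shoots and 30.2, 31.9 and 30.4 in the ABA shoots. The spread within each group was small beside the gap. Its log2 fold change was −0.61 ± 0.19, with an adjusted p of 0.0270 in edgeR's quasi-likelihood test, under the fold cutoff. The more abundant copy Sb07g023920 had 373, 447 and 396 RPKM in the NaOH shoots and 378, 422 and 379 in the ABA shoots, which overlapped (−0.16 ± 0.16, adjusted p = 0.520 in edgeR's quasi-likelihood test). Without NaOH shoots replicate 2, Sb07g023910 had −0.59 with an adjusted p of 0.0581 by the same test. The remaining 6 genes had log2 fold changes of −0.60 to 0.05 in this comparison and adjusted p-values of at least 0.415. Over the 9 genes the median was −0.22, and over all genes tested it was −0.03.

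In roots, ABA led to a call for 1 of the 9 genes, against 13.6% of all genes tested in either direction. The RPKM ranges of 4 of the 9 did not overlap, 3 higher and 1 lower with ABA, against 47.3% of all genes. The gene called was carbonic anhydrase Sb03g029180, the copy that prevailed in control roots. It had 51.9, 40.3 and 52.0 RPKM in the NaOH roots and 26.2, 21.7 and 20.5 in the ABA roots. All ABA libraries were lower, and the gene fell by 1.14 ± 0.27 (SE) on the log2 scale (adjusted p = 0.00266 in edgeR's quasi-likelihood test). Without replicate 3 of all groups the value was −0.98 and the adjusted p 0.113. The neighbouring copy Sb03g029170 had 19.0, 17.5 and 9.75 RPKM in the NaOH roots and 28.3, 25.8 and 14.9 in the ABA roots, higher in each of the 3 experiments but with overlapping ranges (0.53 ± 0.49, adjusted p = 0.461 by the same test).

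The 3 genes whose ABA roots lay above the NaOH roots were PEPC and both NADP-MDH copies. NADP-MDH Sb07g023920 had 1.69, 1.68 and 1.53 RPKM in the NaOH roots and 3.71, 2.62 and 2.75 in the ABA roots, a log2 fold change of 0.83 ± 0.20 (adjusted p = 0.00256 in edgeR's quasi-likelihood test). Sb07g023910 had 0.528, 0.744 and 0.550 RPKM in the NaOH roots and 1.59, 0.973 and 1.06 in the ABA roots, 0.93 ± 0.29 by the same test (adjusted p = 0.0169). Both copies were under the fold cutoff, with 46 to 111 reads per library for the first and 13 to 38 for the second in the 12 root libraries. PEPC had a log2 fold change of 3.53 ± 0.92 with an adjusted p of 0.00556 in edgeR's quasi-likelihood test, but its median depth was under 2X in both groups, so it was not called. The value of PEPC was 1.97 to 4.10 when single libraries or replicates were left out, with adjusted p-values of up to 0.106. Over the 9 genes the median log2 fold change in roots was 0.41, and over all genes tested −0.02.

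**Figure D4:**
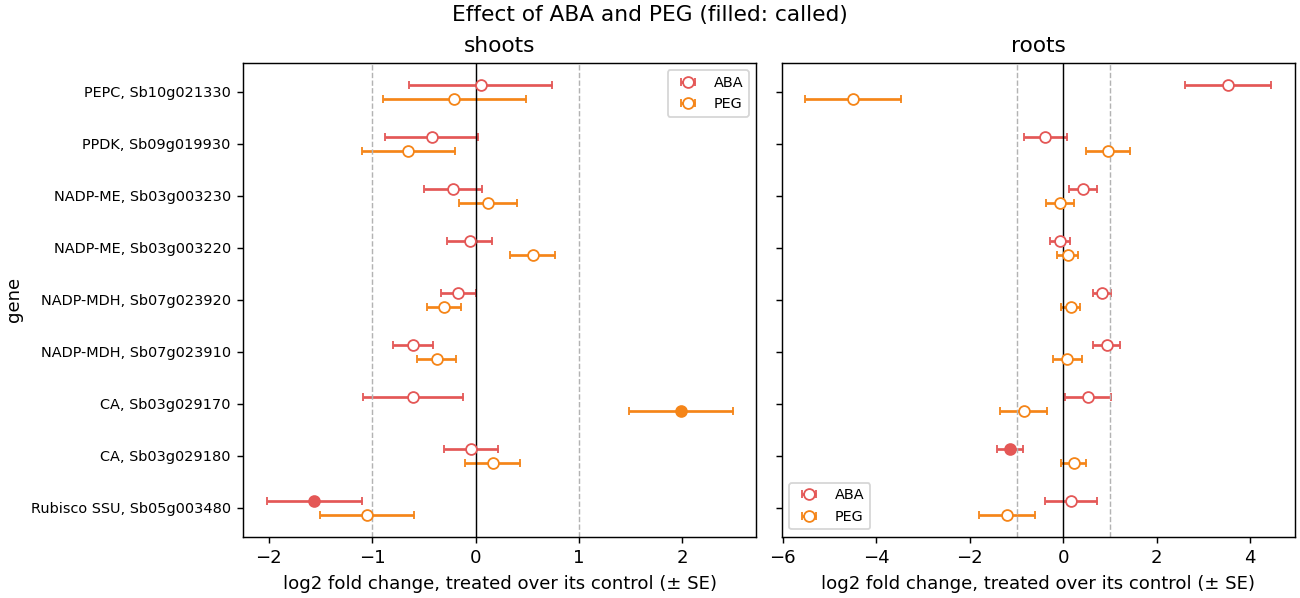
Log2 fold change ± SE from edgeR's quasi-likelihood fit for ABA over NaOH and PEG over H2O, in shoots (left) and roots (right), with the dashed lines at a log2 fold change of −1 and 1; the axes of the panels differ. Filled points passed all 3 cutoffs: the Rubisco small subunit (ABA, shoots), carbonic anhydrase Sb03g029170 (PEG, shoots) and carbonic anhydrase Sb03g029180 (ABA, roots).

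With PEG, which imposes osmotic stress through the roots, 1 of the 9 genes was called in shoots against the H2O control, and 4.73% of all genes tested were called in either direction. Carbonic anhydrase Sb03g029170 rose. It had 219, 261 and 211 RPKM in the H2O shoots and 813, 1406 and 953 in the PEG shoots. The groups lay far apart, with a log2 fold change of 1.99 ± 0.50 (SE), or 3.97-fold, and an adjusted p of 0.00991 in edgeR's quasi-likelihood test. The adjusted p was 0.0567 without replicate 1 of all groups, 0.129 without replicate 3 and 0.0627 in a fit of the 12 shoot libraries alone, with log2 fold changes of 2.14, 1.99 and 2.02. Without H2O shoots replicate 2 it was 2.03 (adjusted p = 0.0156).

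The NaOH shoots of the same carbonic anhydrase gene were unequal, with 210, 1449 and 359 RPKM, and the ABA shoots had 290, 736 and 399. NaOH shoots replicate 2, the library with a header date of its own, was as high as the PEG shoots, while replicate 1 was as low as the H2O shoots. Against NaOH, ABA gave a log2 fold change of −0.60 ± 0.49 (adjusted p = 0.415 in edgeR's quasi-likelihood test), and 0.64 (adjusted p = 0.253) without NaOH shoots replicate 2. Replicate 2 was the highest library of each treatment for this gene, and also for the neighbouring copy Sb03g029180, which had 142 to 331 RPKM over the 12 shoot libraries. Sb03g029180 had 166.2, 191.7 and 165.7 RPKM in the H2O shoots and 197.4, 281 and 199.8 in the PEG shoots, without overlap. The difference was 0.16 ± 0.26 on the log2 scale (adjusted p = 0.715 by the same test).

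The RPKM ranges of 4 of the 9 genes did not overlap between PEG and H2O shoots, 2 higher and 2 lower, against 32.3% of all genes tested. The 2 lower genes were PPDK and the Rubisco small subunit. The Rubisco small subunit had 3367, 2883 and 2780 RPKM in the H2O shoots and 1856, 1466 and 1707 in the PEG shoots. The groups were well apart in RPKM, but the log2 fold change of −1.05 ± 0.46 had an adjusted p of 0.123 in edgeR's quasi-likelihood test and was not called. In a fit of the 12 shoot libraries alone, whose spread leaves out the root libraries, it was −1.02 (adjusted p = 0.0125 by the same test). PPDK had −0.65 ± 0.45 (adjusted p = 0.347), and NADP-ME Sb03g003220 had 0.55 ± 0.22 (adjusted p = 0.0879), higher in each of the 3 experiments, both by edgeR's quasi-likelihood test. PEPC had −0.21 ± 0.69 with PEG and 0.05 ± 0.69 with ABA. These values are on TMM-scaled reads and depend on the scaling. As ratios of mean RPKM, PEG over H2O, the Rubisco small subunit had 0.557, PPDK 0.731, PEPC 0.993 and NADP-ME Sb03g003220 1.68. Over 10 alternatives other than left-out libraries or replicates, the log2 fold change of the Rubisco small subunit was −1.10 to −0.84, on both sides of the fold cutoff. The 9 genes had a median of −0.21, and the median of all genes tested was 0.00.

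In roots, PEG led to no call among the 9 genes, where 3.49% of all genes tested were called in either direction. At an unadjusted p under 0.05 in edgeR's quasi-likelihood test there was 1 member, PEPC, beside 4398 of the 22667 genes tested. DESeq2 called 0 of the 9 and 872 of all genes. The RPKM ranges of 3 of the 9 did not overlap, 2 higher and 1 lower, against 30.9% of all genes. Carbonic anhydrase Sb03g029170 had 20.9, 20.6 and 16.5 RPKM in the H2O roots and 11.6, 9.97 and 11.1 in the PEG roots, the reverse of its order in shoots, with a log2 fold change of −0.85 ± 0.50 (adjusted p = 0.387 in edgeR's quasi-likelihood test). The copy Sb03g029180 had 48.7, 42.6 and 47.4 RPKM in the H2O roots and 59.2, 52.0 and 54.1 in the PEG roots (0.23 ± 0.27, adjusted p = 0.747 by the same test). PEPC had a log2 fold change of −4.50 ± 1.03 with an adjusted p of 0.00820 in edgeR's quasi-likelihood test, but its median depth was under 2X in both groups, and the estimate rests on H2O roots replicates 1 and 2, since replicate 3 had 7 reads, as the PEG libraries had 6 or 7. Over the 9 genes the median log2 fold change was 0.09, and over all genes tested 0.00.

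The ratio of the carbonic anhydrase copies brought out the same contrast within libraries. In shoots, the ratio of Sb03g029170 to Sb03g029180 was 1.28 to 1.36 with H2O and 4.12 to 5.00 with PEG. In roots it was 0.348 to 0.483 with H2O and 0.192 to 0.206 with PEG, and 0.188 to 0.435 with NaOH and 0.727 to 1.19 with ABA. The groups did not overlap in these 3 comparisons, whose mean log2 ratios differed by 1.81, −1.08 and 1.66, whereas the ABA and NaOH shoots overlapped (−0.14). That overlap came from NaOH shoots replicate 2 alone, with a ratio of 5.00. The other NaOH shoots had 1.48 and 1.90 and the ABA shoots 1.95 to 2.39, and without replicate 2, left out after seeing the data, the groups did not overlap and the difference was 0.38 (p = 0.2 in the two-sided exact permutation test, where 0.1 is the smallest value possible). Each of the 3 comparisons without overlap in all libraries had p = 0.1 in the two-sided exact permutation test over libraries, the smallest value that 3 against 3 allows, and 0.24 after Benjamini-Hochberg adjustment over the 12 ratios compared. The other ratios that did not overlap were those of NADP-ME between ABA and NaOH roots (0.48) and of NADP-MDH between ABA and NaOH shoots (0.44), with the same p in the exact permutation test. All 12 ratio comparisons were added after seeing the data and are a description.

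Whether the response differed between tissues was tested as an interaction, without a depth cutoff. For ABA, 2 of the 9 genes, NADP-MDH Sb07g023910 and PEPC, were called, against 9.56% of all genes tested in either direction. NADP-MDH Sb07g023910 had a log2 fold change that differed by −1.53 ± 0.34 (shoots minus roots, adjusted p = 0.00449 in edgeR's quasi-likelihood test), and its copy Sb07g023920 had −0.99 ± 0.26 (adjusted p = 0.0122 by the same test), just under the fold cutoff. Both copies had estimates of opposite sign in the tissues. In the root libraries Sb07g023910 had 13 to 38 reads and Sb07g023920 had 46 to 111. Their adjusted p was over 0.05 in 2 of 23 alternatives, without replicate 1 and without replicate 3 of all groups, and reached 0.113 for Sb07g023910 and 0.166 for Sb07g023920. PEPC had −3.48 ± 1.16, with an adjusted p of 0.0498 in edgeR's quasi-likelihood test that stayed under 0.05 in 5 of 23 alternatives. For PEG, 2 of the 9 genes, carbonic anhydrase Sb03g029170 and PEPC, were called, against 4.08% of all genes tested in either direction. Carbonic anhydrase Sb03g029170 had a log2 fold change 2.84 ± 0.70 higher in shoots than in roots (adjusted p = 0.0199 in edgeR's quasi-likelihood test). It stayed under 0.05 in 19 of 23 alternatives and was over 0.05 without replicate 1, without replicate 3, without PEG roots replicate 2 and without H2O shoots replicate 3, reaching 0.173. PEPC had 4.29 ± 1.26 (adjusted p = 0.0469 in edgeR's quasi-likelihood test) and stayed under 0.05 in 8 of 23 alternatives.

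Between the ABA effect and the PEG effect in shoots, which have separate controls, 0 of the 9 genes were called, against 1.79% of all genes tested. At an unadjusted p under 0.05 in edgeR's quasi-likelihood test there was 1 member, beside 4018 of the 22667 genes tested. DESeq2 called 1 member, beside 722 of all genes. The member was carbonic anhydrase Sb03g029170 in both. Its difference was −2.59 ± 0.69 (ABA minus PEG, log2 scale), with an adjusted p of 0.0511 in edgeR's quasi-likelihood test. With the replicate block it was −2.43 (adjusted p = 0.0267), and without NaOH shoots replicate 2 it was −1.35 (adjusted p = 0.185). The Rubisco small subunit had lower RPKM with both treatments but was called with ABA alone. Its difference was −0.50 ± 0.64 with a 95% interval of −1.76 to 0.75.

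The controls were compared with each other as well. Between NaOH and H2O, edgeR's quasi-likelihood test called 0 of the 9 genes and 0.0% of all genes tested in roots, and 0 of the 9 and 0.0% in shoots. At an unadjusted p under 0.05 there were 360 genes in roots, among them 1 member, and 566 in shoots, among them 1 member, and DESeq2 called 1 gene in roots and 0 in shoots. The members were PEPC in roots, with a log2 fold change of −3.48 ± 0.93 between the controls that was of the size of its ABA response, and carbonic anhydrase Sb03g029170 in shoots, with 1.59 ± 0.50 and, without NaOH shoots replicate 2, 0.35 ± 0.36.

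Other genes of the pathway were taken from names in the gene lists of the study, which it chose on these samples, so both the calls among them and their directions are tied to that choice and are not independent evidence. Of 5 relatives of the members, 3 were called higher with ABA in shoots, where 7.17% of all genes tested were called in either direction, and 3 with PEG in shoots, where 4.73% were, and 0 were called lower. PEPC 2 (Sb02g021090), another PEPC of the family, had 18.5 to 19.2 RPKM in the NaOH shoots and 43.7 to 49.2 in the ABA shoots, and 20.1 to 22.7 in the H2O shoots and 44.0 to 58.8 in the PEG shoots. Neither pair of groups overlapped, with log2 fold changes of 1.20 ± 0.16 and 1.04 ± 0.16 (adjusted p = 1.87e-05 and 0.000134 in edgeR's quasi-likelihood test). Of the 2 PEPC models examined, PEPC 2 was the more abundant in roots, with 87.6 to 165 RPKM in the 12 root libraries, and its control level was lower in shoots (−2.21 ± 0.11, adjusted p = 2.66e-13 by the same test).

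The PEPC kinases, which phosphorylate PEPC and make it less sensitive to malate, were the other relatives called in shoots. PEPC kinase 1 (Sb04g036570) had 6.90 to 8.29 RPKM in the NaOH shoots and 39.3 to 51.3 in the ABA shoots, and 4.15 to 7.32 in the H2O shoots and 16.3 to 22.7 in the PEG shoots. It rose by 2.49 ± 0.22 with ABA and 1.57 ± 0.22 with PEG on the log2 scale (adjusted p = 1.72e-07 and 6.14e-05 in edgeR's quasi-likelihood test). PEPC kinase 3 (Sb04g026490) rose by 1.94 ± 0.22 and 1.47 ± 0.22 (adjusted p = 4.49e-06 and 0.000137). In PEG roots PEPC kinase 1 fell by 1.10 ± 0.22 (adjusted p = 0.00327 in edgeR's quasi-likelihood test). By the same test PEPC kinase 3 had −0.93 ± 0.22 (adjusted p = 0.0103) and PEPC 2 −0.78 ± 0.15 (adjusted p = 0.00301) there, both under the fold cutoff. In ABA roots PEPC kinase 3 had 0.79 ± 0.22 (adjusted p = 0.00784 by the same test), also under that cutoff. Carbonic anhydrase Sb03g029190, numbered next to the 2 members, had 33.5 to 64.7 RPKM in roots and 7.77 to 19.3 in shoots. It was lower in control shoots (−1.69 ± 0.16, adjusted p = 7e-09) and was called with neither treatment, although its PEG shoots differed by 0.87 ± 0.23 (adjusted p = 0.0130 in edgeR's quasi-likelihood test), under the fold cutoff. The last relative, Rubisco activase Sb05g027880, had 0 to 2 reads in every root library. In shoots it had 2.53 ± 0.89 with ABA and 1.36 ± 0.96 with PEG (adjusted p = 0.0531 and 0.366 in edgeR's quasi-likelihood test), and was not called.

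Photosynthesis genes outside the C4 cycle named in those lists were counted too, with the same limit: the study picked them on these libraries. The share of all genes called in either direction was 7.17% with ABA and 4.73% with PEG in shoots. Of 9 light-harvesting genes, 7 were called lower with ABA and 3 with PEG, and their summed level was 34632 to 41009 RPKM in the NaOH shoots and 13812 to 17391 in the ABA shoots, and 35887 to 37017 in the H2O shoots and 18507 to 24159 in the PEG shoots. Of 15 photosystem subunit genes, 13 were called lower with ABA and 3 with PEG, and of 4 Calvin cycle genes, 3 with each. The median log2 fold changes of these lists were −1.33, −1.38 and −1.38 with ABA and −0.98, −0.98 and −1.16 with PEG. In roots, 1 light-harvesting gene was called lower with PEG and 0 with ABA. Within shoot libraries, the ratio of PEPC to the Rubisco small subunit was 1.43 to 2.00 with NaOH and 5.19 to 5.61 with ABA, and 1.34 to 2.38 with H2O and 2.65 to 4.43 with PEG, with no overlap in either comparison.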

How the data were processed

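The authors trimmed reads to 50 bases, aligned them to sbi1 with ELAND_rna keeping unique matches, and counted them on Sbi1.4 exons with CASAVA 1.6, as described in the study and its labels. What the deposited tables name a raw count sums aligned bases. Reads were taken as these bases divided by 50, in whole numbers. The deposited RPKM was used for levels, and the depth, a coverage signal made by the authors, for the 2X cutoff. Of the 9 gene names, 4 carry the suffix -1 (1490 of 34145 models), the meaning of which is not given in the sources used here.

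Tests used edgeR 4.0.16 in R 4.3.3, with a robust quasi-likelihood model of 8 group means over 24 libraries. They used TMM scaling and edgeR's low-count filter, and were two-sided, with Benjamini-Hochberg adjustment over 22667 genes. The model was also run on simulated counts with a fixed dispersion, no tissue difference and no fold or depth cutoff. That setting is unlike these genes, and no conclusion is drawn from it. Alternatives used DESeq2 1.42.0, limma 3.58.1 on log2(RPKM + 1) and log2(RPKM + 0.1), other scalings, filters, cutoffs and left-out libraries. Replicate numbers mark separate experiments and so pair the libraries. Deviations from the group means correlated by 0.32 on average within a number and tissue (36 pairs). Between roots and shoots of the same number the average was 0.08 (48 pairs), and between numbers it was −0.09 (168 pairs of other groups). Deviations within a group cancel out, so a positive value within numbers goes with a negative value between them. The named genes are all 9 members, relatives named in the study's lists, and the genes most like PEPC and the Rubisco small subunit. The reference table used here paired no names with these identifiers, so the planned lists were replaced by names in the study's lists, of which only part was used. Members and lists were chosen with earlier results of these data known, and the ratios of copies and their values without NaOH shoots replicate 2 were added after seeing the data. Counting error at the depth of 12891739 to 22840516 reads per library limits genes with few reads.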

Additional observations from a re-analysis of the deposited data

Results flagged for a closer look

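For 4 members, an interaction test between roots and shoots gave an adjusted p under 0.05. It was edgeR's quasi-likelihood test on the log2 fold change in shoots minus that in roots. With ABA, NADP-MDH Sb07g023910 differed by −1.53 (adjusted p = 0.00449) and NADP-MDH Sb07g023920 by −0.99 (adjusted p = 0.0122). The values in each tissue were −0.61 in shoots and 0.93 in roots for the first and −0.16 and 0.83 for the second. In the root libraries the first had 13 to 38 reads and the second 46 to 111. PEPC Sb10g021330 differed by −3.48 with ABA (adjusted p = 0.0498) and by 4.29 with PEG (adjusted p = 0.0469), on root levels of at most 5.44 RPKM and at times 6 or 7 reads per library. The adjusted p of PEPC stayed under 0.05 in 5 of 23 alternatives for ABA and in 8 of 23 for PEG. Between the NaOH and H2O control roots, PEPC had a log2 fold change of −3.48 ± 0.93, which was not called. With PEG, carbonic anhydrase Sb03g029170 differed by 2.84 (adjusted p = 0.0199), from 1.99 in shoots and −0.85 in roots. The part of traces of shoot RNA in the root values was not tested.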

How the results depend on the processing

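Over 45 log2 fold changes of single members and 900 alternatives, 881 kept their side of the threshold and, where called, their direction, 8 lost the call, 11 gained one and 0 reversed. The number of the 9 members called moved as follows, and the cause was not tested. The number of all genes called moved with the setting as well. Between the effects of ABA and PEG in shoots, edgeR's quasi-likelihood test called 405 genes and DESeq2 722. For ABA in shoots against roots they called 2167 and 2589. As the number of all genes is not given for each setting, the moves below are no result about the members. With ABA in roots the number of members called was 1, and 2 without a fold cutoff and 2 without a depth cutoff. With ABA in shoots it was 1, and 2 without a fold cutoff and 0 by limma on log2(RPKM + 0.1). With PEG in roots it was 0, and 1 without a depth cutoff. Between NaOH and H2O shoots it was 0, and 1 by the common-dispersion exact test. Between the effects of ABA and PEG in shoots it was 0, and 1 with library sizes alone, 1 by DESeq2 and 1 with the replicate block. For ABA in shoots against roots it was 2, and 4 by DESeq2, 1 with no low-count filter and 1 with the RTA version as a term. For PEG in shoots against roots it was 2, and 1 with no low-count filter, 1 by limma on log2(RPKM + 1) and 1 by limma on log2(RPKM + 0.1). With single libraries or replicates left out it was 0 to 2 with ABA in roots, 0 to 1 with ABA in shoots, 0 to 1 with PEG in roots, 0 to 1 with PEG in shoots, 0 to 1 between ABA and PEG, 0 to 3 for ABA in shoots against roots and 0 to 2 for PEG in shoots against roots. In the paired fit with the replicate block no other number of called members moved by over 1.5 times. Without NaOH shoots replicate 2, an alternative added after seeing the data, the log2 ratio of the carbonic anhydrase copies, ABA against NaOH in shoots, reversed from −0.14 to 0.38. The common-dispersion exact test gives no interaction, and a fit of 12 libraries gives no value across tissues. Depth limits PEPC and the Rubisco small subunit in roots, at 6 to 451 and 2 to 98 reads per library.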

Other observations

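Over the 12 shoot libraries, the genes outside the 9 whose log2(CPM + 1) was most like that of PEPC were Sb02g041920 (r = 0.930) and Sb02g006440 (r = 0.929), with mean levels of 21.3 and 15.6 RPKM. Those most like the Rubisco small subunit were Sb01g035390 (r = 0.988), at 19.6 RPKM, and Sb04g024130 (r = 0.987), at 1875 RPKM. These r values are a description over libraries that share experiments and treatments, and each gene was picked as the highest of all genes tested.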
